A study of Mus musculus with 14 samples.

Results

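The loci of Runx1, Runx3 and Ets1 were examined for histone acetylation and Polycomb methylation in mouse regulatory T cells with and without Slc31a1, the gene of the copper importer CTR1. All peaks that overlapped 1 of 3 windows of the mm39 genome by at least 1 base were taken: chr16:92370000-92660000 for Runx1 (gene ID 12394), chr4:134830000-134925000 for Runx3 (gene ID 12399) and chr9:32520000-32690000 for Ets1 (gene ID 23871). They came to 258 of the 309136 peaks in 10 lists, with 119 at Runx1, 24 at Runx3 and 115 at Ets1. In a RefSeq gene table of another build, GRCm38.p6, the nearest protein-coding neighbours were Clic6 and Setd4 for Runx1, Syf2 and Clic4 for Runx3, and Fli1 and Kirrel3 for Ets1. No annotation of mm39 was used, so peaks are given by position and are not assigned to promoters, introns or the gene itself.

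The knockout libraries came from chimeras named Foxp3YFP-Slc31a1△;wt and the control libraries from chimeras named Foxp3YFPcre;wt. The control name gives a Cre recombinase joined to yellow fluorescent protein at Foxp3, the gene that defines regulatory T cells. The knockout name does not spell out the Cre. That the same Cre drives the deletion in Foxp3-expressing cells, so that both kinds of chimera express it, is inferred from the names. The labels do not explain the wt in these names and give no age. Cells were sorted by FACS, and 140000 cells per sample went into CUT&Tag, in which a transposase tethered by an antibody cuts out the chromatin that bears a histone mark. H3K27ac was mapped in 3 knockout and 3 control chimeras and H3K27me3 in 2 knockout and 2 control chimeras, and 4 IgG samples were not analysed. Labels number the chimeras without tying each sample to its own animal, and the spread behind each p-value is that between these libraries and may be technical. The labelled cell type was not checked against marker genes, and the deletion was not checked at Slc31a1, for want of an mm39 annotation.

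RUNX proteins bind DNA through the Runt domain together with the partner CBFβ. In regulatory T cells Runx1 works with Foxp3 and helps to maintain its expression, while Runx3 is best known for silencing Cd4 in cytotoxic T cells and also binds at Foxp3. Ets1, an abundant lymphocyte factor of the ETS family, binds the Foxp3 locus and is needed for stable Foxp3 expression. H3K27ac marks active enhancers and promoters, and long acetylated stretches are typical of genes that define a cell type, whereas H3K27me3 is the repressive mark of Polycomb.

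Each Runx gene is read from a distal and a proximal promoter. RefSeq promoter sequences, from 250 bases before to 50 bases after the start, were matched for Runx1 and Runx3, 4 in all. The distal ones are shown because they hold copies of the RUNX core motif, so that these genes carry possible target sites of their own proteins. They lie at chr16:92826025-92826324 on the minus strand for Runx1 and at chr4:135120395-135120694 on the plus strand for Runx3. These are GRCm38.p6 coordinates and cannot be set against mm39 peaks. Capitals mark ACCACA, which reads TGTGGT on the other strand, and both sequences run 5′ to 3′.
Runx1 distal promoter: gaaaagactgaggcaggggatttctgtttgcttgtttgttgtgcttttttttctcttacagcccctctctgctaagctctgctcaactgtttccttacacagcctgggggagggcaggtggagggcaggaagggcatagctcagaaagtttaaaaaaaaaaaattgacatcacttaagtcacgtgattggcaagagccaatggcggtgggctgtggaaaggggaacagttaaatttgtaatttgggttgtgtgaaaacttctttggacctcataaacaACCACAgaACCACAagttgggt
Runx3 distal promoter: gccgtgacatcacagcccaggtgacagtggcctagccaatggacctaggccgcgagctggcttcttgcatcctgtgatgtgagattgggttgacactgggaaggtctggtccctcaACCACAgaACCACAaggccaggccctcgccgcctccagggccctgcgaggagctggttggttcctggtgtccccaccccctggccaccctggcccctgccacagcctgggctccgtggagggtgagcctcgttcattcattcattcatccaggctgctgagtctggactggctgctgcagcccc
Each distal promoter held 2 ACCACA and no TGTGGT. Their longest shared run was the 18 bases that span both copies, starting at base 277 of the Runx1 sequence and at base 115 of the Runx3 sequence. Neither proximal promoter held the motif on either strand. The proximal sequences were 69.0% G and C for Runx1 and 77.3% for Runx3, and the distal ones were 45.0% for Runx1 and 63.7% for Runx3. Of all 32851 promoters in the table, 16.8% held ACCACA or TGTGGT. A motif match describes the letters and is not a measured binding site.

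The H3K27ac lists held between 21326 and 28289 peaks in knockouts and between 27986 and 32012 in controls. Peaks narrower than 1 kb made up between 47.5% and 54.0% of the knockout lists and between 56.4% and 58.1% of the control lists. Depth was read back from the summit heights that the deposited fold and −log10 p values imply. Only whole numbers of fragments were tried, for peaks with a −log10 p of at most 150. In each list such a number gave back the deposited −log10 p within 0.005 for at least 99.98% of these peaks. Fragments per kb rest on the assumption that the narrowest peak of each list has the length of 1 fragment. By this reading, depth was 11.0, 10.9 and 9.10 fragments per kb in knockouts 1 to 3 and 12.4, 8.49 and 9.02 in controls 1 to 3. The background library behind the lists was deeper for the knockouts, at 20.7, 20.6 and 20.6 fragments per kb, against 16.1, 13.1 and 13.1 for the controls. Hence the effect of the genotype and that of the background library cannot be told apart at these loci. Of the H3K27me3 lists, control 1 stood apart with 7512 peaks of a −log10 p between 2.02 and 7.21, and the other 3 held between 36436 and 57728 peaks.

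At Runx1, fewer bases lay under H3K27ac peaks in every knockout than in every control, and the knockouts had fewer peaks. Peaks covered 29.88, 34.21 and 26.78 kb of the 290 kb window in knockouts 1 to 3, and 39.91, 37.66 and 39.08 kb in controls 1 to 3. Every knockout value was below every control value. The means were 30.29 ± 3.729 kb in knockouts and 38.88 ± 1.138 kb in controls (SD over n = 3 libraries, two-sided exact permutation p = 0.1, adjusted over 9 tests 0.225). With 3 libraries against 3 this test cannot give a p below 0.1. Among genome tiles as long as the window, 14% had every knockout below every control in covered bases, so this separation is not rare in these lists.

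Peak number at Runx1 was 13, 15 and 14 in knockouts, against 33, 22 and 22 in controls. The counts did not overlap, and they averaged 14 ± 1 in knockouts and 25.67 ± 6.351 in controls (SD over n = 3 libraries, two-sided exact permutation p = 0.1, adjusted over 9 tests 0.225). The same separation in peak number was seen in 13.8% of tiles of this length. Peaks narrower than 1 kb numbered 5, 6 and 6 in knockouts and 22, 15 and 13 in controls, an exact permutation p of 0.1. Such peaks made up a larger share of the control lists genome-wide, 56.4% to 58.1% against 47.5% to 54.0%. The division at 1 kb was made after the data were seen, and the share of genome tiles with this order was not counted. Wider peaks numbered 8, 9 and 8 in knockouts and 11, 7 and 9 in controls, with overlapping ranges and an exact permutation p of 0.8. When every list was shortened to its strongest 21326 peaks, the difference in covered bases shrank from −8593 to −3784 bases (exact permutation p = 0.2) and that in peak number from −11.67 to −2.667 (exact permutation p = 0.5).

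The widest Runx1 peak was not separated by genotype. It measured 7.201, 6.559 and 5.584 kb in knockouts and 6.056, 6.759 and 10.97 kb in controls. The means were 6.448 ± 0.8142 kb in knockouts and 7.929 ± 2.659 kb in controls (SD over n = 3 libraries, two-sided exact permutation p = 0.5). The high control mean rests on control 3, in which 1 peak spans chr16:92606726-92617697. Without it the difference turned round, to 40.5 bases.

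**Figure D1:**
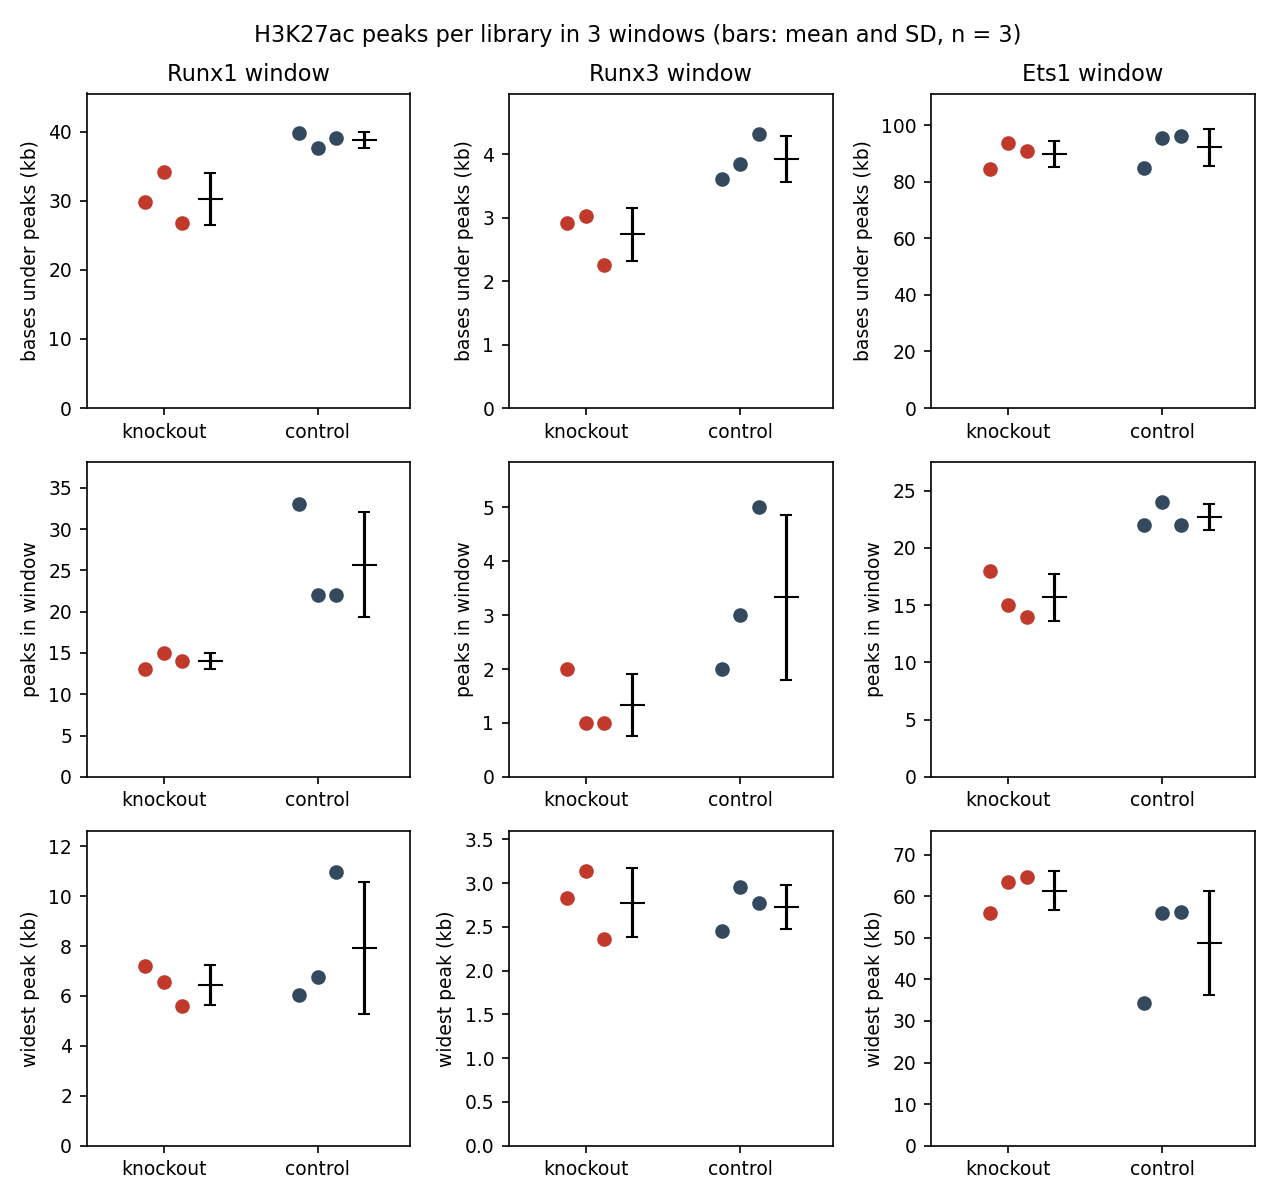
H3K27ac peaks per library at Runx1, Runx3 and Ets1 (columns): kb under peaks, number of peaks, and width of the widest peak in kb (rows). Red points are knockout libraries 1 to 3, dark points control libraries 1 to 3, and bars the mean ± SD (n = 3). Covered bases separate the genotypes at Runx1 and Runx3 and overlap at Ets1. Peak number separates them at Runx1 and at Ets1, where knockouts have 18, 15 and 14 peaks and controls 22, 24 and 22. Of genome tiles as long as the window, 14% at Runx1 and 13.6% at Runx3 had this order in covered bases. For peak number the shares were 13.8% at Runx1 and 11.8% at Ets1.

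The 6 H3K27ac lists merged into 33 regions in the Runx1 window, and 6 of these were acetylated in every library, or 18.2%, against 34.9% over the genome. Another 3 regions had a peak in all 3 controls and in no knockout, and no region had the reverse. Over the genome, 2.66% of 37563 merged regions were of the first kind and 0.809% of the second. A further 15 Runx1 regions had a peak in 1 or 2 controls and no knockout, or 45.5%, and 3 had a peak in 1 or 2 knockouts and no control, or 9.09%. Over the genome these classes held 22.2% and 13.1% of the merged regions, so controls exceed knockouts there too.

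Of the 3 regions found in controls alone, chr16:92586589-92588240 was covered over 1149, 1253 and 1039 bases in controls 1 to 3, in 2 peaks each. At chr16:92589109-92590056 the controls had 337, 537 and 948 bases, and at chr16:92417433-92418657 they had 1191, 558 and 475 bases. The −log10 p of these peaks stood between the 5.54 and 66.1 percentile of their own lists. Their summits held between 19 and 43 fragments over a local background of 2.09 to 9.25. The fewest summit fragments that could be called at the genome-wide background were between 11 and 13 in the 6 lists. More are needed over a higher local background. In control 1 the peak from 92589658 had 27 fragments over 9.25 and a −log10 p of 6.29, where its list begins at 5.0. A list does not state how much signal lay below its limit of calling, so an absent peak in the knockouts does not show absent acetylation. With lists of equal length, 1 Runx1 region was found in controls alone.

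The long Runx1 stretches were acetylated in both genotypes. They line up at the high-coordinate end of the peaks in the window. The longest merged region, chr16:92602793-92617807, was covered over 12557, 12418 and 10562 bases in knockouts and 11669, 12568 and 13937 bases in controls. Beside it, chr16:92618084-92624329 was covered over 5992, 6179 and 5634 bases in knockouts and 6056, 6067 and 6154 bases in controls. These ranges overlap in each case. The region chr16:92595280-92602427 had 5470, 6494 and 5573 bases in knockouts and 5436, 6714 and 6359 in controls. A separate region some distance away, chr16:92440860-92443972, had 2515, 2502 and 2199 bases in knockouts and 2392, 3113 and 2530 in controls. None of the 4 regions of 3 kb or longer separated the genotypes, whereas the shorter chr16:92582828-92585201 did, with 1520, 1772 and 1098 bases in knockouts and 2120, 2195 and 2211 in controls. Over the 3 windows, 9 of 59 merged regions had every knockout below every control in covered bases, 5 of them at Runx1, 1 at Runx3 and 3 at Ets1, where 7.6% of the merged regions of the genome had this order.

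**Figure D2:**
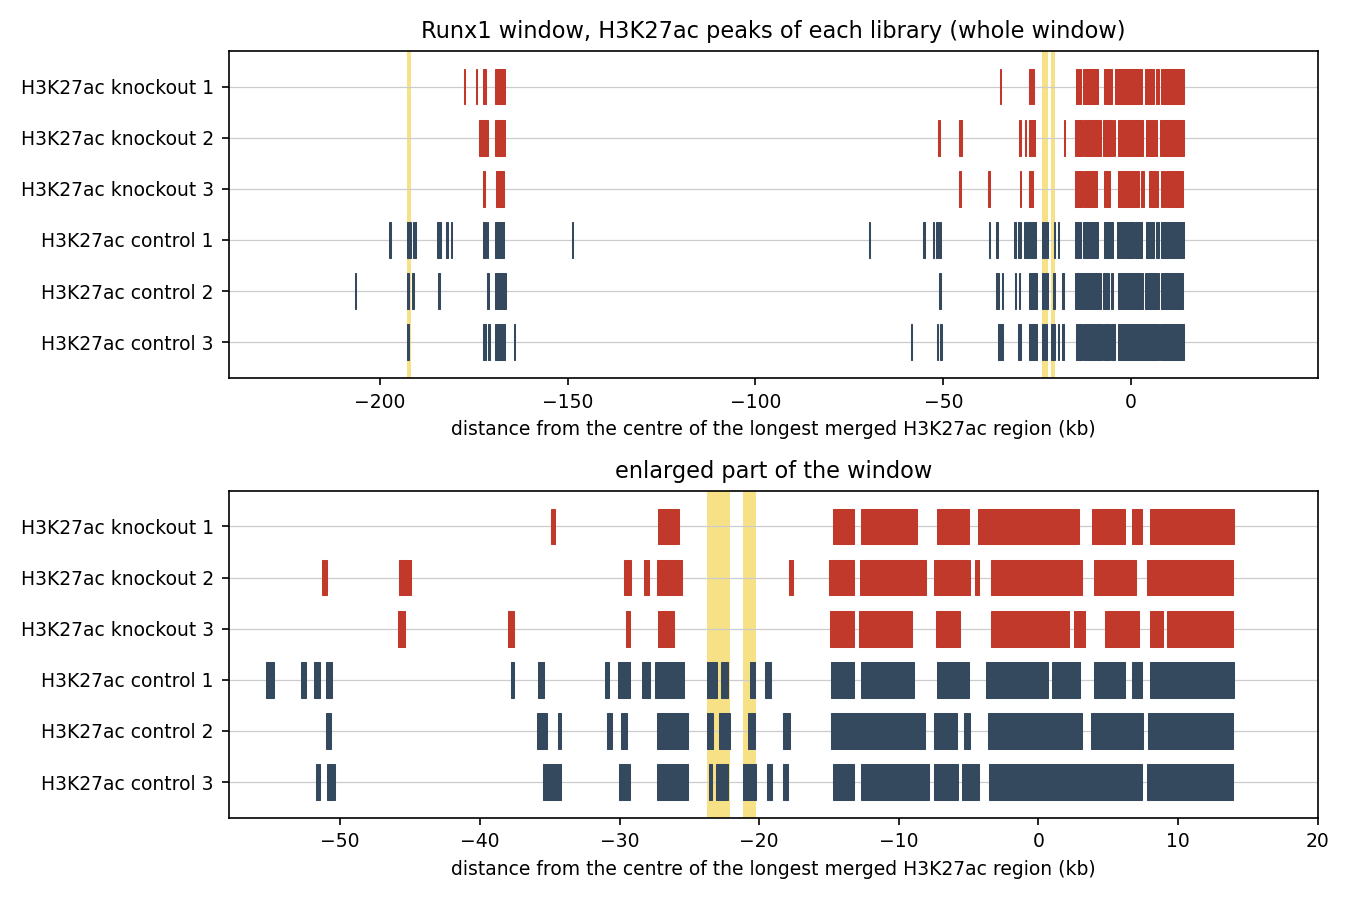
H3K27ac peaks of each library in the Runx1 window, knockouts (red) above controls (dark), by distance in kb from the centre of the longest merged region. Yellow bands mark the 3 regions with a peak in every control and in no knockout, and the long stretches around 0 kb, enlarged in the lower panel, appear in all 6 rows.

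In 10 kb bins of the whole genome, tested with limma on log2(covered bases + 100), 10 of the 29 Runx1 bins had enough covered libraries to be tested. One bin was lower in knockouts and none was higher at an adjusted p under 0.05, where 2.25% of the 19295 bins tested genome-wide were lower and 0.58% higher. That bin, chr16:92580001-92590000, held 1520, 2617 and 1418 covered bases in knockouts and 5071, 4427 and 4938 in controls. It contains the shortened region and, but for a few bases, both neighbouring regions that were found in controls alone. Its log2 change, knockout minus control, was −1.41 (SE 0.176, limma adjusted p = 0.0257). The call was lost without knockout 3 (limma adjusted p = 0.0818), without control 1, 2 or 3 (limma adjusted p = 0.0991, 0.13 and 0.117), and when 10 bases were added in place of 100 (limma adjusted p = 0.0565), with log2 changes between −1.57 and −1.07 over 13 alternatives that kept the 10 kb bins. The 20 kb bin from the same start had a log2 change of −0.64 (limma adjusted p = 0.0615), and of its 5 kb bins the first had −0.72 (limma adjusted p = 0.14) and the next, from 92585001, −4.32 (limma adjusted p = 0.0245). That last bin held no knockout peak, so it passed the filter of at least 3 covered libraries through the controls alone. Its call adds no support beyond the regions found in controls alone. The bin at chr16:92410001-92420000, with 0 covered bases in each knockout and 2354, 942 and 475 in controls, had a limma adjusted p of 0.0518. It passed the filter of at least 3 covered libraries through the controls alone.

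Runx3 carried little acetylation, most of it in 1 peak at the low-coordinate edge of its window. Peaks covered 2921, 3023 and 2259 bases of the 95 kb window in knockouts, against 3615, 3843 and 4321 bases in controls. Every knockout was below every control, with means of 2.734 ± 0.4148 kb in knockouts and 3.926 ± 0.3603 kb in controls (SD over n = 3 libraries, two-sided exact permutation p = 0.1, adjusted over 9 tests 0.225). Tiles of this length showed the same separation in 13.6% of cases. Peaks numbered 2, 1 and 1 in knockouts and 2, 3 and 5 in controls (exact permutation p = 0.2).

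The edge peak, in the merged region chr4:134829719-134833022, was the widest in each list and reaches beyond the window. It was 2828, 3142 and 2363 bases wide in knockouts and 2455, 2959 and 2771 in controls, with means of 2.778 ± 0.3919 kb in knockouts and 2.728 ± 0.2547 kb in controls (SD over n = 3 libraries, two-sided exact permutation p = 0.9). Its −log10 p stood between the 91.4 and 96.3 percentile of its own list in all 6 libraries. The difference at Runx3 therefore lay elsewhere in the window.

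It lay mostly in 1 region, chr4:134880360-134881722, which had a peak in all 3 controls, of 1363, 736 and 993 bases, and in no knockout. The control peaks had between 72 and 113 fragments at the summit, over a local background of 27.2 to 43.9 fragments, far above the genome-wide background of 2.09 to 2.88 fragments in the same lists. Together with the difference in background library between the genotypes this is given as a measured fact, and its part in the result was not tested. With lists of equal length, 1 Runx3 region was again found in controls alone. Of the remaining 4 regions in the window, 3 had a peak in 1 control and in no knockout. Among all merged regions of the genome, 2.66% were acetylated in the 3 controls alone and 22.2% in 1 or 2 controls alone. The Runx3 window held 6 merged regions, and a difference from these shares was not tested.

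The 10 kb bin that holds this region, chr4:134880001-134890000, was 1 of 2 Runx3 bins tested, of 10 in the window. Its log2 change was −3.49 (SE 0.552, limma adjusted p = 0.0335). No knockout had a covered base in it, so it passed the filter of at least 3 covered libraries through the controls alone. Its call therefore adds no support beyond the peaks given above. The size of the change depends on the pseudocount and was −6.68 with 10 bases and −1.03 with 1000 bases. The call was lost without knockout 2 or 3 (limma adjusted p = 0.124 and 0.0756), without control 1, 2 or 3 (limma adjusted p = 0.108, 0.13 and 0.117), when 10 bases were added (limma adjusted p = 0.0581), with no filter (limma adjusted p = 0.0521) and after quantile normalization (limma adjusted p = 0.053). The other tested bin, over the edge peak, had a log2 change of −0.06 (limma adjusted p = 0.896).

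Runx3 was the 1 locus of the 3 with H3K27me3. Methylated peaks covered 420 and 5284 bases in knockouts 1 and 2 and 2455 and 4383 bases in controls 1 and 2. The means were 2852 ± 3439 bases in knockouts and 3419 ± 1363 bases in controls (SD over n = 2 libraries, two-sided exact permutation p = 1.0), and no p below 0.33 is possible with 2 libraries against 2. Without control 1, whose list stood apart, the difference was −1531 bases, and with it −567 bases. The peaks numbered 1 and 3 in knockouts and 3 and 3 in controls. The widest were 420 and 4069 bases in knockouts and 1709 and 3886 bases in controls, and those of knockout 2, control 1 and control 2 overlapped, at chr4:134865915-134869983, chr4:134866049-134867757 and chr4:134865981-134869866.

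The marks did not overlap at Runx3. In 12 pairs of a knockout H3K27ac list with an H3K27me3 list the shortest gap between the marks was between 27.5 and 37.0 kb, and in 12 pairs of a control H3K27ac list with an H3K27me3 list it was between 3.14 and 10.9 kb, with 0 bases shared in any pair. The shorter gaps are those to the region acetylated in controls alone. The shortest, 3.14 kb, lies between H3K27ac of control 1 and an H3K27me3 peak of knockout 2. From the H3K27me3 peaks of control 1, whose list stood apart, to the control H3K27ac lists it was 3.17 to 3.35 kb. From those of control 2 it was 9.13 to 9.31 kb. No H3K27me3 peak fell in the Runx1 or Ets1 window in any of the 4 lists.

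**Figure D3:**
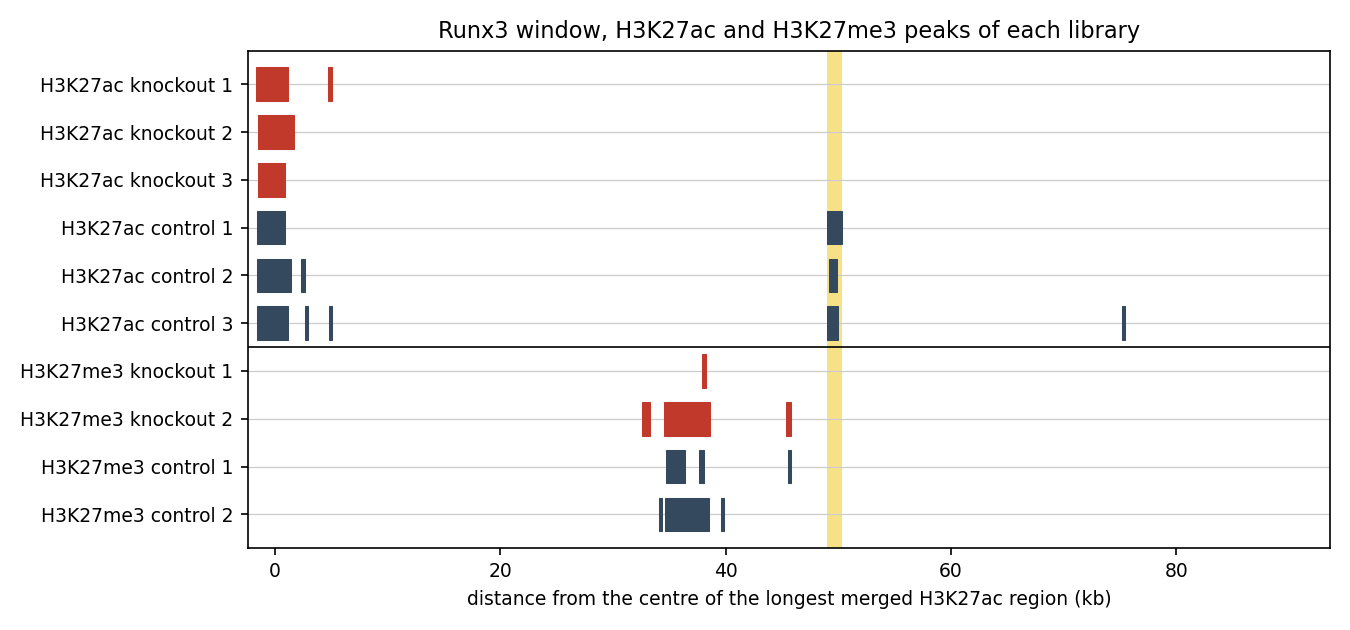
H3K27ac and H3K27me3 peaks of each library in the Runx3 window, knockouts (red) above controls (dark) for each mark, by distance in kb from the centre of the longest merged H3K27ac region. The yellow band marks the region acetylated in every control and in no knockout; the methylated peaks lie between it and the edge peak that all 6 H3K27ac lists share.

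Ets1 carried the most acetylation of the 3 loci, in a domain that ranks among the longest of these lists. Peaks covered 84.59, 93.69 and 90.98 kb of the 170 kb window in knockouts and 84.70, 95.57 and 96.06 kb in controls. The ranges overlapped, with means of 89.76 ± 4.673 kb in knockouts and 92.11 ± 6.424 kb in controls (SD over n = 3 libraries, two-sided exact permutation p = 0.5). About the same part of the window was covered in both genotypes, between 49.8% and 55.1% in knockouts and between 49.8% and 56.5% in controls.

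The widest Ets1 peak was among the 3 longest of the genome in every list. It measured 56.01, 63.33 and 64.64 kb in knockouts and 34.32, 56.00 and 56.12 kb in controls. Its rank by width was 1, 2 and 2 in knockouts and 3, 1 and 1 in controls. The means were 61.33 ± 4.647 kb in knockouts and 48.81 ± 12.56 kb in controls, and knockout 1 lay below control 3 (SD, n = 3 each, two-sided exact permutation p = 0.2). The difference of 12510 bases fell to 5264 bases without control 1, and it depended on where peaks were split. After peaks within 3 kb of each other were joined, the domain was 68840, 71727 and 72012 bases long in knockouts and 71070, 71993 and 72959 bases in controls, and the difference turned round to −1148 bases.

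The Ets1 window held fewer peaks in every knockout than in every control. Peaks in the window numbered 18, 15 and 14 in knockouts and 22, 24 and 22 in controls, with no overlap, means of 15.67 ± 2.082 in knockouts and 22.67 ± 1.155 in controls (SD over n = 3 libraries, two-sided exact permutation p = 0.1, adjusted over 9 tests 0.225). This separation was seen in 11.8% of tiles of the same length. Peaks under 1 kb numbered 7, 5 and 3 in knockouts and 10, 10 and 9 in controls. Wider peaks numbered 11, 10 and 11 in knockouts and 12, 14 and 13 in controls. This division was made after the data were seen, and the share of genome tiles with these orders was not counted. With lists of equal length the difference in number shrank to −3.333 (exact permutation p = 0.4), from −7.

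The main domain, chr9:32603963-32673905, spans 69.94 kb in the merged lists. It was covered over 65459, 68400 and 68981 bases in knockouts, in 7, 3 and 2 peaks, and over 63429, 67122 and 68136 bases in controls, in 9, 6 and 6 peaks. Peak number in the domain overlapped between the genotypes, since knockout 1 had 7. The second long region, chr9:32521410-32533396, was covered over 9546, 11683 and 10780 bases in knockouts and 9210, 11025 and 11470 bases in controls. Of 20 merged regions in the window, 7 were acetylated in every library (34.9% over the genome), none was found in 1 genotype alone in all 3 of its libraries, and 7 had a peak in 1 or 2 controls and no knockout (22.2% over the genome).

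A shorter region between these stretches did separate the genotypes, 1 of 3 among the 20 in the window with every knockout below every control. Over the genome, 7.6% of merged regions had this order. These 3 regions were singled out after their values were seen. At chr9:32569361-32574610, peaks covered 3050, 3152 and 3024 bases in knockouts and 4949, 4904 and 5072 bases in controls. Libraries of 1 genotype differed little, with an SD of 67.66 bases in knockouts and 86.97 bases in controls, and the means were 3075 and 4975 bases. The peaks of knockouts 1 to 3 ran from 32570823, 32570698 and 32570839 to 32573872, 32573849 and 32573862. The main peaks of the controls began earlier, at 32569662, 32569361 and 32569380, and ended later, at 32574610, 32573912 and 32574451. The difference at the low-coordinate end was clear in every library. At the other end the main peak of control 2 stopped close to the knockout peaks. Control 2 reached 32574596 only through a separate peak of 352 bases.

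Its neighbour chr9:32577974-32580139 had 896, 771 and 551 covered bases in knockouts and 2088, 1550 and 1243 in controls. On the other side, chr9:32563035-32564073 had 0, 536 and 0 bases in knockouts and 698, 1004 and 1039 in controls. Neither group of values overlapped between the genotypes, with every knockout below every control, the order of 7.6% of the merged regions of the genome. Further along, chr9:32582259-32584831 had 2178, 2403 and 2440 bases in knockouts and 2348, 2318 and 2541 in controls, with overlap.

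**Figure D4:**
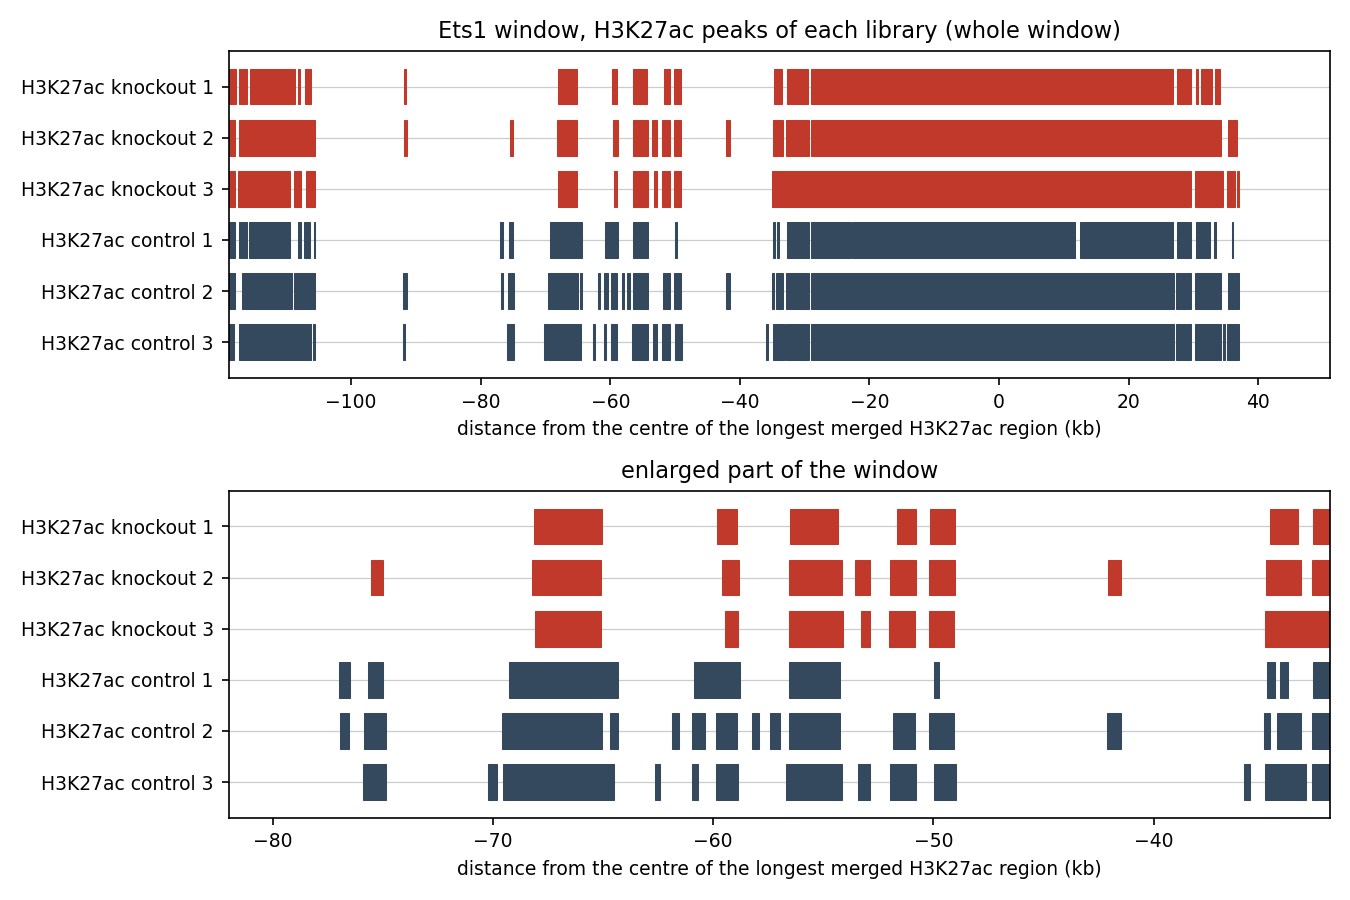
H3K27ac peaks of each library in the Ets1 window, knockouts (red) above controls (dark), by distance in kb from the centre of the longest merged region, with the region shortened in knockouts enlarged in the lower panel. The domain around 0 kb fills all 6 rows, in 7, 3 and 2 peaks in knockouts and 9, 6 and 6 in controls.

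Of the 17 Ets1 bins 14 were tested, and 1 was lower in knockouts at a limma adjusted p under 0.05, where 2.25% of all bins tested were. This bin, chr9:32570001-32580000, held 3921, 3821 and 3528 covered bases in knockouts and 6559, 6129 and 5882 in controls, and its log2 change was −0.73 (SE 0.111, limma adjusted p = 0.0318). The call was lost without knockout 2 or 3 (limma adjusted p = 0.115 and 0.057), without control 1, 2 or 3 (limma adjusted p = 0.107, 0.131 and 0.117) and when 10 bases were added (limma adjusted p = 0.0569), with log2 changes between −0.77 and −0.61 over 13 alternatives that kept the 10 kb bins. Within it, the 5 kb bins from 32570001 and 32575001 had log2 changes of −0.55 and −1.30 (limma adjusted p = 0.0434 and 0.0452), and the 20 kb bin from 32560001 had −1.02 (limma adjusted p = 0.0174). The bin before it had a larger log2 change of −3.43 from far fewer bases, 0, 536 and 0 in knockouts and 1507, 2065 and 2051 in controls (limma adjusted p = 0.0614). In the middle of the main domain 3 bins were covered over all 10000 bases in every library, where covered length cannot show a difference in either direction.

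Over the 3 windows together, 26 of 56 bins were tested. By limma at an adjusted p under 0.05, 3 were lower in knockouts and 0 higher, where 2.25% and 0.58% of all bins tested were. At an unadjusted p under 0.05 the limma counts were 7 lower and 0 higher, where 10.9% and 5.99% of all bins tested were. Every knockout was below every control in 6 of the 26 bins and above in 0, where 12.4% and 9.64% of all bins tested had these orders. The median log2 change was −0.05 over the 26 bins and −0.05 over all bins tested. By locus the median was −0.19 at Runx1, −1.77 over the pair of Runx3 bins and −0.01 at Ets1. The Runx3 value rests on the bin that was tested through its controls alone. The Runx1 bin chr16:92410001-92420000 was also tested in this way. With no covered base in any knockout, these bins could not come out higher. Both are in the counts of 7 and 6, and the Runx3 bin is also among the 3.

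**Figure D5:**
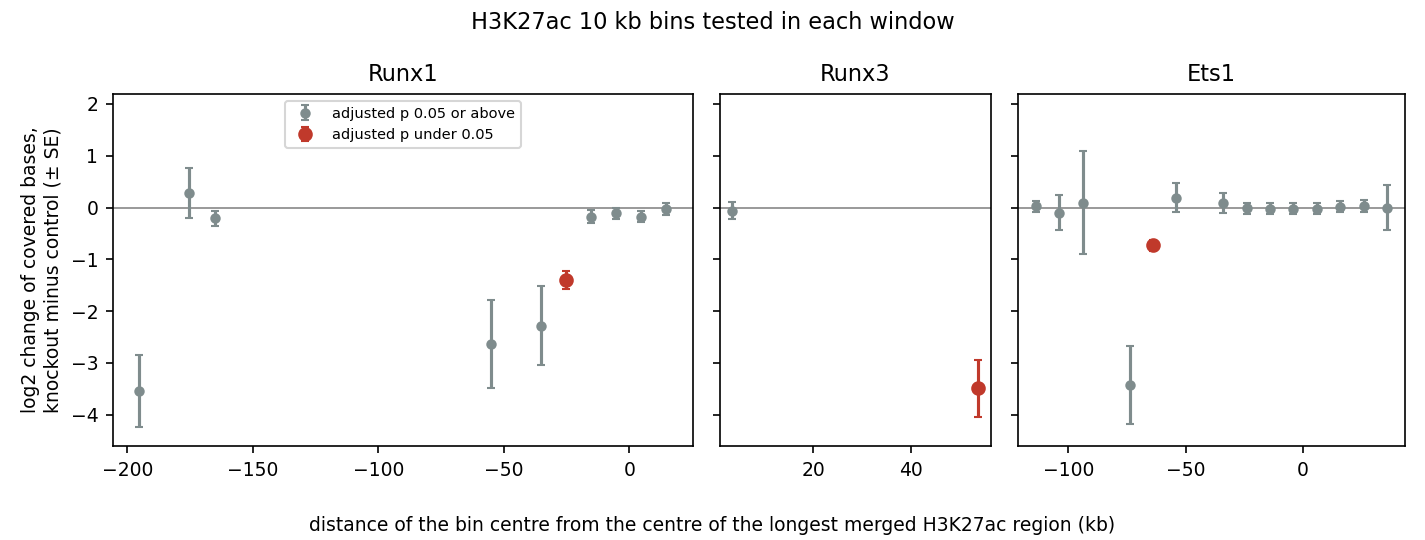
Log2 change of covered bases, knockout minus control (± SE), for each 10 kb bin tested at Runx1, Runx3 and Ets1, by distance in kb of the bin centre from the centre of the longest merged H3K27ac region. Red points have a limma adjusted p under 0.05. The bins of the main Ets1 domain lie near 0, and the red bins have log2 changes of −1.41 at Runx1, −3.49 at Runx3 and −0.73 at Ets1. The red Runx3 bin was tested through its controls alone.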

How the data were processed

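Per the submitters' processing notes, Bowtie2 2.2.4, deepTools 3.5.1, MACS2, ChIPseeker 1.30.3 and HOMER 4.11 were used with build mm39; their settings, and the background library of each peak call, are not given in the sources used here. The authors' deposited peak lists are separate for each of the 10 H3K27ac and H3K27me3 libraries, and 4 IgG samples were not analysed here. Each peak has a deposited score, a fold enrichment as a ratio, and p and q values as −log10. They rank peaks inside 1 list only, and were used here to rank, filter and describe peaks and to read back fragments. Peak lists hold no read counts, so lengths and numbers of peaks were compared.

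Covered bases were clipped to the window and peak widths were not. Regions are the merged union of the 6 H3K27ac lists. Covered bases, peak number and widest peak were tested between genotypes by two-sided exact permutation tests (Python 3.11.15), adjusted by Benjamini-Hochberg over 9 locus and measure combinations. Bins of 10 kb with covered bases in at least 3 H3K27ac libraries were tested with limma 3.58.1 in R 4.3.3 on log2(covered bases + 100), centred on the median of bins covered in all libraries, with trended and robust variances and Benjamini-Hochberg adjustment over all bins. The bin step was tested on simulated data. Background shares use consecutive tiles as long as each window.

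The loci, windows and lists were chosen with earlier results of these data known. Named were all regions of 3 kb or longer, all regions found in 1 genotype alone and all bins past the threshold of 0.05; further regions of each window were singled out after their values were seen. Alternatives were a stricter q, lists of equal length, joined peaks, wider windows, other pseudocounts, filters, scalings and bin sizes, a replicate block and leaving out each library; peaks were divided at 1 kb after the data were seen. Gene lists and marker genes were not analysed here.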

Additional observations from a re-analysis of the deposited data

How the results depend on the processing

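Differences are knockout minus control, in bases. Covered bases at Runx1 and Runx3 and peak number at all 3 loci kept their direction under every alternative run. Widening the Runx3 window by 20 kb on each side moved its covered bases to −2111, against −1192, and the ranges on leaving out each library were −10550 to −6839 and −1348 to −954.3 bases, and −13.5 to −8, −2.667 to −1.167 and −8.167 to −6.167 peaks at Runx1, Runx3 and Ets1. Other values were less stable, and the cause was not tested: leaving out each library gave −6062 to 226.7 for covered bases at Ets1, −2418 to 40.5 and −132.8 to 256.7 for the widest peak at Runx1 and Runx3, 5264 to 16170 for that at Ets1, and −2999 to 1865 for Runx3 H3K27me3, which was 807 with lists of equal length. Joining peaks within 3 kb turned the widest peak to −1681 at Runx3 and −1148 at Ets1 and took it to −4343, against −1481, at Runx1, and joining over just above 4 times that distance to 402 at Runx1, −370.3 at Runx3 and −1598 at Ets1. Counting a region only where at least 0.5 of its length was covered gave 1 region in controls alone at Runx1 and 1 at Ets1; lists of equal length gave 1 at Runx1. Genome-wide, 435 bins were lower and 112 higher by limma; adding 10 bases gave 26 lower and 4 higher, testing all bins 269 lower and 58 higher, and bins of 5 kb 737 lower and 207 higher. Adding 1000 bases gave 169 higher, and lists of equal length 254 higher. Leaving out each library gave 0 to 974 lower and 0 to 245 higher bins; at an unadjusted p under 0.05 limma gave 1567 lower and 868 higher without control 2, 1699 and 1051 without control 3, and 719 and 852 higher without knockout 2 and knockout 3. With a replicate block 29 were lower and 3 higher. The 3 named bins then lost their calls, with limma adjusted p of 0.0578 at Runx1, 0.0698 at Runx3 and 0.0608 at Ets1. Deviations of same-numbered libraries correlated at 0.246, 0.053 and 0.01, and those of differently numbered ones at −0.213 to 0.177. These values do not settle whether the numbers pair the samples. A list shows no acetylation below its limit of calling, and fully covered bins cannot rise.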
